A study of Mus musculus with 24 samples.

Results

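The m6A peak profile of germinal vesicle (GV) oocytes was set against that of MII oocytes, zygotes, embryos at the 2-cell and 8-cell stage, and blastocysts. There were 2 immunoprecipitated (IP) libraries per stage with 1 deposited peak list each, so that 2 GV lists were compared with 10 others. A protein-coding gene was counted as marked in a library when a peak overlapped its RefSeq gene body (GRCm38.p6, the mm10 assembly) by at least 1 bp. Some library marked 9900 protein-coding genes. Of these, 185 genes (1.87%) were marked in both GV libraries and in no other, and 76 genes (0.768%) were unmarked in both GV libraries and marked in 8 or more of the 10 others. Overlapping peaks of all 12 lists were also joined into 31379 regions, of which 1055 regions (3.36%) had a peak in both GV libraries and in no other, and 78 regions (0.249%) had no GV peak and a peak in 8 or more others. These counts follow from the selection rule itself and were not tested.

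All cells came from superovulated 8-week-old C57BL/6N mice and were pooled. The 2 GV pools held 49 oocytes each, of the type with a surrounded nucleolus, which were taken 48 h after PMSG in medium with 0.2 mM IBMX, an inhibitor that holds oocytes in meiotic arrest, and were freed of cumulus cells by pipetting. MII oocytes, arrested at the second meiotic metaphase, were taken 14 h after hCG in pools of 100 and 110 and freed of cumulus cells with hyaluronidase. Zygotes were collected 27 to 28 h, 2-cell embryos 39 to 43 h, 8-cell embryos 68 to 70 h and blastocysts 92 to 94 h after hCG. These pools held 100 embryos each, except 1 of the 8-cell pools, which held 51. All groups had the zona pellucida dissolved in acid. Their RNA was cleared of ribosomal RNA and DNA and sheared by sonication before precipitation with an m6A antibody.

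N6-methyladenosine (m6A) is a modification of adenosines inside messenger RNA, deposited by a methyltransferase complex around Mettl3 and Mettl14, removed by the demethylases Fto and Alkbh5, and read by proteins such as the Ythdf and Ythdc families. In most cell types it is concentrated near stop codons and in 3′ untranslated regions and influences splicing, translation and decay. The fully grown GV oocyte is held in meiotic prophase, is largely silent in transcription when its nucleolus is surrounded by chromatin, and stores the maternal messenger RNAs that are translated or removed during maturation and after fertilisation. A peak list records where precipitated RNA exceeded its background. A gene without a peak may carry no m6A, may have little RNA, or may lie below detection, and in pooled cells fewer modified molecules and fewer RNA molecules cannot be told apart. The matching input libraries were not analysed here, and the read depth behind the lists is unknown.

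The GV lists held 10953 and 11959 peaks, against 6914 to 10781 peaks in the 10 other lists, all of which were shorter. The difference of the means was 2371 peaks, with an exact two-sided permutation p of 0.0303 over the 66 ways of choosing 2 of 12 libraries and a Benjamini-Hochberg adjusted p of 0.121 over 8 measures. The GV libraries marked 4819 and 5234 protein-coding genes, against 3024 to 5202 in the others, and these ranges overlapped (exact permutation p = 0.136, adjusted p = 0.364). With lists of equal length the difference was 33.4 genes, against 751 in the lists as deposited (exact permutation p = 0.924 with equal length). Of 20 oocyte marker genes, 11 carried a peak in some library and 5 did so in both GV libraries, namely Mos, Gja4, Nlrp5, Gdf9 and Bmp15. Pou5f1 was marked in 1 GV library and 6 others. Npm2 (5 others), H1f8 (4 others), Nobox (3 others), Ooep and Padi6 (1 other each) were marked outside GV but in neither GV library. Zp1, Zp2, Zp3, Figla, Ddx4, Dazl, Kit, Oosp1 and Zar1 had no peak in any of the 12 lists, so the label could be read from peaks only in part. Of 18 cumulus and granulosa cell genes, 6 were marked in each GV library, against 2 to 6 (median 2) in the others. Fshr, Amh, Foxl2, Inha, Npr2, Ptgs2, Tnfaip6, Ptx3, Ereg, Areg and Slc38a3 had no peak in any list, and Has2 was marked in 1 other only. As for the oocyte markers, a missing peak does not show that the RNA was absent. In both GV libraries Nr5a2 and Gja1 were marked, as they were in 10 and 8 of the others, and so were Kitl and Cyp11a1 (3 others each), Inhba (2 others) and Cyp19a1 (no other).

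The number of genes specific to GV was not singular among the stages. By the same rule 187 genes were specific to blastocysts, 138 to 8-cell embryos and 129 to 2-cell embryos, but only 24 to MII oocytes and 13 to zygotes. For regions, GV had 1055 and 2-cell embryos 1250, while 8-cell embryos had 524, blastocysts 414, MII oocytes 192 and zygotes 111. In the reverse direction GV had the smallest counts of the 6 stages at 8 or more others. With all 10 others asked for, GV had 10 genes and 14 regions, against 4 and 3 for MII oocytes, the smallest. At 8 or more others, the 76 genes missing from GV compared with 141 for MII oocytes, 268 for zygotes, 329 for 2-cell embryos, 381 for 8-cell embryos and 329 for blastocysts, and the 78 regions missing from GV with 203 to 1216 for the other 5 stages. These counts share libraries and move with list length. With each list cut to its best 6914 peaks by q-value, the length of the shortest, the genes specific to GV numbered 124, against 37 for MII oocytes, 23 for zygotes, 145 for 2-cell embryos, 125 for 8-cell embryos and 230 for blastocysts. The GV-specific regions then numbered 530, against 984 for 2-cell embryos.

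**Figure D1:**
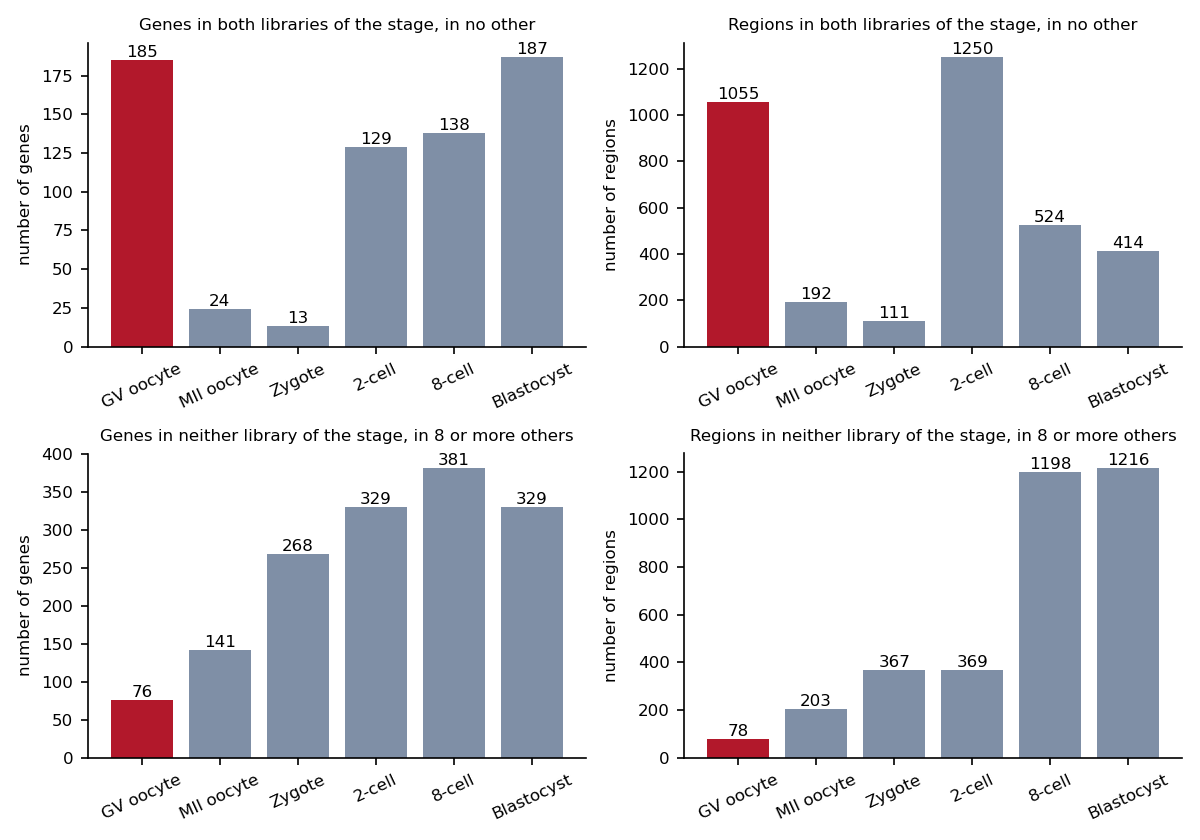
Number of protein-coding genes (left) and regions (right) found in both libraries of a stage and in none of the other 10 (upper row), and found in neither library of the stage but in 8 or more others (lower row), by stage. GV oocytes are in red. GV has 185 and 1055 in the upper row, next to 187 blastocyst genes and 1250 2-cell regions, and the smallest counts in the lower row, 76 and 78.

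Most genes marked in GV were marked again later. Of the 4548 genes marked in both GV libraries, 828 were marked in all 10 others, 179 in exactly 1 other and 185 (4.07%) in none. The share found again was 77.9% and 69.2% in the MII libraries, 55.3% and 72.5% for zygotes, 50.4% and 53.0% for 2-cell embryos, 55.0% and 57.7% for 8-cell embryos and 62.4% and 53.8% for blastocysts. The 2 zygote libraries thus differed from each other by more than the MII libraries did. The first zygote list was the shortest of all. Of the 179 genes with exactly 1 other library, 44 and 16 were shared with the MII libraries, 7 and 33 with the zygote libraries, 9 and 6 with the 2-cell libraries, 10 and 14 with the 8-cell libraries, and 31 and 9 with the blastocyst libraries.

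**Figure D2:**
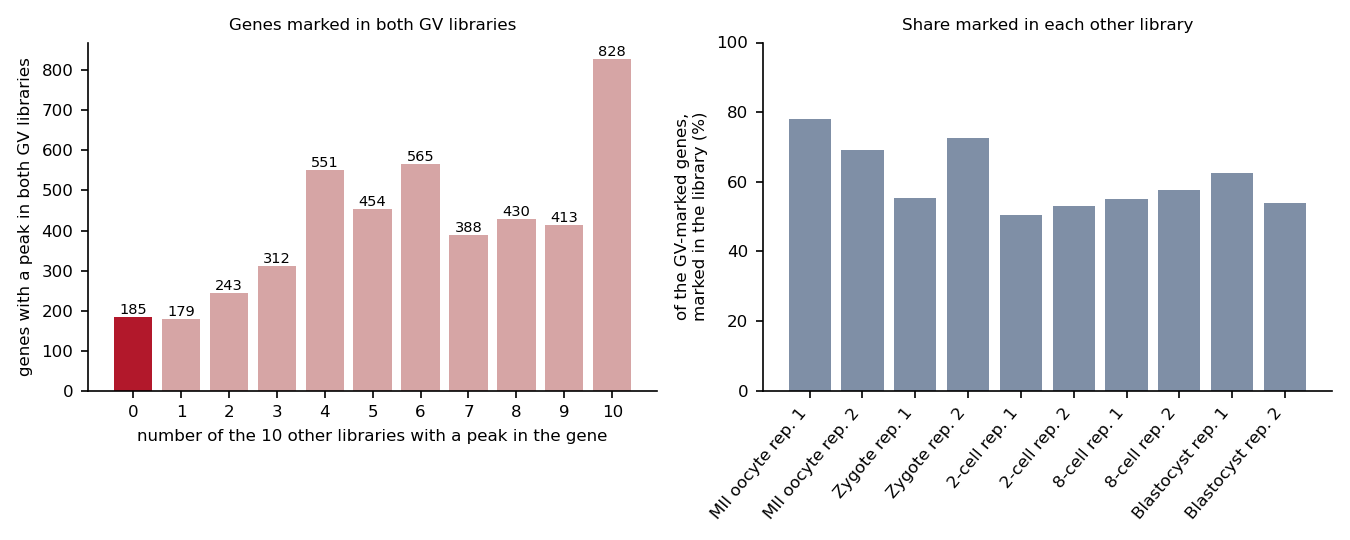
Left, the 4548 genes marked in both GV libraries by the number of the 10 other libraries in which they were marked, with the 185 marked in none in red. Right, the percentage of the 4548 genes marked in each other library, from 50.4% in a 2-cell library to 77.9% in an MII library.

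The genes marked only in GV carried few and narrow peaks, set towards the 3′ end. Each of the 185 genes carried on average 1.17 and 1.19 peaks in the 2 GV libraries, against 1.74 and 1.84 peaks for the genes marked in both GV libraries and at least 1 other. A single peak was found in 158 and 153 of the 185 genes. Their peaks had a median width of 255.5 and 272 bp, against 354 and 367 bp, and a median fold enrichment of 4.28 and 3.92, against 4.50 and 4.45. Fold enrichment here is the authors' own value for each peak. The gene's best peak stood at the median at percentile 42.1 and 38.7 of its own list by fold, against 59.9 and 64.5. In 178 of the 185 genes the peaks of both GV libraries met in 1 region, and in 7 genes they lay at different sites. The median gene length was 33747 bp, against 38207 bp, and 41 of the 185 genes overlapped another protein-coding gene, so that a peak there cannot be assigned to 1 of them.

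A strand was given in the RefSeq promoter table for 144 of the 185 genes. The position of each peak midpoint along the gene was read for those longer than 10000 bp. Of the peaks in GV-only genes, 44.7% and 43.1% lay within 2000 bp of the 3′ end in the 2 GV libraries, against 26.28% and 26.02% for genes marked in GV and at least 1 other library. Within 2000 bp of the start lay 1 of 141 and 2 of 144 peaks (0.709% and 1.39%), against 3.15% and 3.57%. Both libraries gave the same order, but in most GV-only genes their peaks met in 1 region, so the 2 readings are not independent. With 2 GV libraries, and with membership fixed by the peaks themselves, no test was made.

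An annotated start was covered by a peak in both GV libraries in 2 of the 144 GV-only genes, and in 8 others in 1 of 63 genes missing from GV. Among 7797 other marked genes with a strand, 76 had a start covered in both GV libraries and 12 in 8 others. Covered starts were thus few in every group and are not a trait of the sets. The members with one are Fam169b and the gene model Gm5955 in GV and Slc3a2 outside it. In Fam169b and Slc3a2 the start lies inside the gene body, at an alternative transcript. The stretch under the peaks of every covering library is shown for all 3, as the covered starts among the members. It runs from the peak's edge to 30 bases after the start at most, 5′ to 3′ on the gene's strand, in RefSeq sequence of GRCm38.p6 (Fam169b, chr7:68275961-68276013, plus strand; Gm5955, chr12:88124473-88124695, plus strand; Slc3a2, chr19:8713868-8713897, minus strand).
Fam169b: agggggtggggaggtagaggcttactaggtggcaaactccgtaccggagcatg
Gm5955: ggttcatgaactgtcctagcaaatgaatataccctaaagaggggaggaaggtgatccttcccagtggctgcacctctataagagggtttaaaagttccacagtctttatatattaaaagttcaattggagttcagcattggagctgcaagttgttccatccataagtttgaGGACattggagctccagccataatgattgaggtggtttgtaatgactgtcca
Slc3a2: cccgccgccacacccgcccagcggcagaag
GGAC, the most frequent core of the m6A sequence motif, was searched on both strands and is in capitals on the gene's strand. The stretch of Gm5955 holds it 1 time on the gene's strand and 2 times on the other, and the stretches of Fam169b and Slc3a2 hold none. The same stretch relative to the start held GGAC on either strand at 34.7% of 21262 starts for the 53 bases of Fam169b, at 81.9% for the 223 bases of Gm5955 and at 21.9% for the 30 bases of Slc3a2. No genome sequence was used, so the sites away from starts are given by position.

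Among the GV-only genes the strongest was Opalin, which encodes a membrane protein of myelinating oligodendrocytes. Its best peak had a fold enrichment of 13.9 and 13.4 in the 2 GV libraries, at chr19:41062262-41062828 in the second, and its midpoint lay 586 bp from the 3′ end. The 2 GV values were close to each other. Aph1c, a subunit of the gamma-secretase complex, followed with a fold of 7.62 and 12.3 and a peak 4160 bp from the 3′ end. Mab21l1, a developmental regulator, had 9.08 and 8.32 and overlaps another protein-coding gene. Iqcf3 and Iqcf5, of the IQ-motif family, overlap each other and share 1 peak with a fold of 7.82 and 9.65. This single site therefore stands for 2 of the 185 genes.

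Plac8, first described in placenta, had a wide gap between the replicates, with a fold of 13.7 and 6.26. Haptoglobin (Hp), a haemoglobin-binding plasma protein, showed a like gap with 5.52 and 12.2, at a peak of 201 and 267 bp, 225 bp from the gene's nearer end. In both genes 1 GV library thus carried most of the enrichment. Cd6, a receptor of T cells, had a peak of 205 and 202 bp, close to the 200 bp minimum of the lists, with a fold of 8.37 and 7.06. Adprm, a phosphodiesterase acting on ADP-ribose, had 8.69 and 7.23 and overlaps another protein-coding gene.

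Several signalling and cytoskeletal genes belonged to the same leading set of 15. Arhgef28, a guanine nucleotide exchange factor, had a fold of 7.87 and 7.31, with 1 peak in the first and 4 peaks in the second GV library. Hhat, the acyltransferase that palmitoylates hedgehog ligands, had 7.27 and 7.47 at a site deep in the gene, 113754 bp from its start. These 2 genes carried their best peaks far from the 3′ end. Tspan5, a tetraspanin, had 8.82 and 6.31 at 1840 bp from the 3′ end. Sik2, a salt-inducible kinase, had 5.81 and 10.6 at 3759 bp from the 3′ end. Wasf1, a regulator of actin branching, had 8.89 and 6.06 at 877 bp from the 3′ end, and B3gnt4, a glycosyltransferase, had 6.48 and 9.57 at 849 bp from the 3′ end. In these 4 genes the site lay towards the 3′ end, and Sik2 and B3gnt4 overlap another protein-coding gene.

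**Figure D3:**
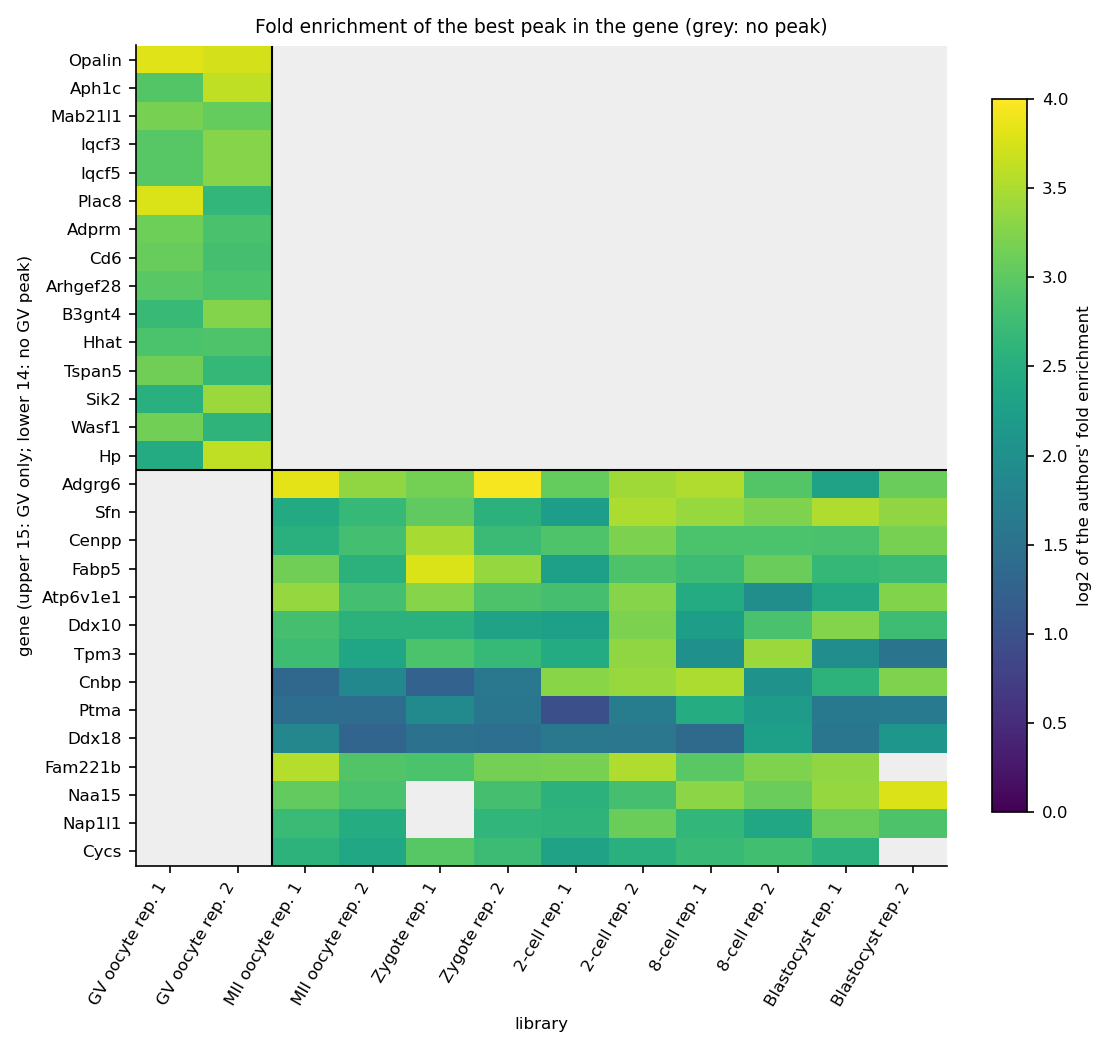
Fold enrichment of the best peak (log2 of the authors' value, colour) in each of the 12 libraries for the 15 leading genes marked only in GV (upper block) and 14 leading genes missing from GV (lower block). Grey cells have no peak. The pattern of empty cells is fixed by the selection. Within the blocks, Opalin stands at 13.9 and 13.4 in GV, and Ptma and Ddx18 stay between 1.97 and 5.59 in the other libraries.

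Of 34 oocyte-specific genes marked anywhere, 26 were marked in both GV libraries (76.5%, against 45.9% of all marked genes), and Oas1c and Oas1d were marked in GV alone (5.88%, against 1.87% of all marked genes). Oas1c and Oas1d are oocyte-expressed members of the oligoadenylate synthetase family. Oas1c had 2 peaks in each GV library with a best fold of 2.56 and 3.18, 245 bp from the 3′ end, and Oas1d had 1 peak with 3.14 and 3.39, 332 bp from its nearer end. Both genes stood below the median fold of the GV lists, 4.83 and 4.62. Kdm1b, the histone demethylase needed for maternal imprints, had 2.46 and 3.18 at 2341 bp from the 3′ end. Cnot6l, the deadenylase that removes maternal messenger RNA during maturation, had 2.54 and 2.34 at 7028 bp from the 3′ end. Elavl2, an RNA-binding protein, had 4.74 and 5.07 and lay 41829 bp from the 3′ end. Kdm1b and Cnot6l overlap another protein-coding gene. Kdm1b was the only GV-only gene of 28 marked maternal-effect genes (3.57%), Elavl2 of 40 RNA storage genes (2.5%) and Cnot6l of 52 deadenylation and decay genes (1.92%), next to 1.87% of all marked genes.

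Cyp19a1 encodes aromatase, a granulosa cell enzyme. It had a fold of 5.37 and 5.68 in GV, 802 bp from the 3′ end, and was the only one of the 7 cumulus and granulosa genes marked anywhere that was marked in GV alone. Of those 7 genes 6 were marked in both GV libraries (85.7%, against 45.9% of all marked genes). The genes of the list outside these 7 had no peak in any library, which does not show that their RNA was absent. The part of residual cumulus RNA in the GV-only set was not tested.

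Genes of immune recognition appeared among the GV-only genes and were grouped after their values were seen. Of 21 CD antigen genes marked anywhere, 4 were marked in GV alone (Cd5, Cd6, Cd69 and Cd180), and of 3 marked Toll-like receptor genes 2 were (Tlr3 and Tlr9), which is 19.05% and 66.7%, next to 1.87% of all marked genes. Tlr9, the receptor for unmethylated CpG DNA, had 4 and 3 peaks with a best fold of 5.27 and 8.19, and Tlr3, the receptor for double-stranded RNA, had 2 and 2 peaks with 5.89 and 6.40. Such multiple peaks were rare in the set. Cd69 had 7.49 and 6.38, Cd180 had 6.82 and 4.73, and Cd5 had 3.15 and 4.99. Tnfsf11, the ligand RANKL, had 4.66 and 4.22 with a peak of 716 and 717 bp, and Tnfrsf8 had 4.03 and 3.28. Most of these sites lay near the 3′ end, at 240 bp for Tlr9, 376 bp for Cd5, 1245 bp for Cd180, 1258 bp for Tnfsf11 and 1250 bp for Tnfrsf8. CD antigen genes were marked in 10 and 12 cases per GV library, against 3 to 6 (median 5) in the others, and Toll-like receptors in 2 and 3, against 0 in every other library. The GV-only members enter these counts by the rule that chose them, as 4 of the CD antigens and 2 of the Toll-like receptors. The contrast is thus in part fixed by the selection and adds no separate result. Many CD antigens are surface markers of blood cells, and the part of such cells in these counts was not tested.

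Other families followed the background more closely. Of 311 marked Zfp zinc finger genes, 4 were marked in GV alone (1.29%), among them Zfp235 with 3 peaks in each GV library and a best fold of 3.80 and 6.91. Of 180 marked solute carriers 5 were (2.78%), namely Slc12a9, Slc2a12, Slc5a12, Slc6a4 and Slc6a20a, the last of which had its best peak 446 bp from the start. The F-box gene Fbxw10 (1 of 59, 1.69%) and Tcstv3, listed with the genes of zygotic genome activation (1 of 29, 3.45%), were single members. No gene was marked in GV alone among 56 cytosolic and 63 mitochondrial ribosomal protein genes marked anywhere. The same held for 31 proteasome, 46 oxidative phosphorylation, 69 splicing and 50 ubiquitin-specific protease genes. Next to 1.87% of all marked genes, none in a list of this size is no result about that list.

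The genes missing from GV included 6 of 69 marked splicing factors (8.70%) and 3 of 31 marked proteasome subunits (9.68%), next to 0.768% of all marked genes. Only genes marked in 8 or more others could enter, 76 without and 1730 with a GV peak. The 0.768% is thus a low base for widely marked lists. Marked splicing factors had a median of 6 other libraries and proteasome subunits 3, against 4 for all marked genes. No oocyte-specific or maternal-effect gene was among the missing genes. The rule of 8 or more others shuts out genes marked only from MII oocytes to 2-cell embryos. Marked genes of these lists had a median of 4 and 5 other libraries, so their absence is no result about them. The 10 genes marked in all 10 other libraries were Adgrg6, Sfn, Cenpp, Fabp5, Atp6v1e1, Ddx10, Tpm3, Cnbp, Ptma and Ddx18. The libraries with the most of the 76 genes were the first MII and the first 8-cell library (73 each), and that with the fewest the first zygote library (51).

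Adgrg6, an adhesion G protein-coupled receptor, had the highest enrichment of these, with a best fold between 4.96 and 15.4 (median 9.51) in the 10 other libraries. The lowest value was in the first blastocyst library and the highest in the second zygote library. Sfn, the 14-3-3 sigma protein, had a fold of 4.69 to 11.5 (median 8.75). Its widest peak was 204 to 216 bp in MII oocytes, zygotes and the first 2-cell library, 765 bp in the second 2-cell library, and 1148 to 1186 bp in the 8-cell and blastocyst libraries, where it spanned most of the 1613 bp gene. The 2-cell replicates thus differed from each other, and the widest peaks were those of the 8-cell and blastocyst libraries. Cnbp, a nucleic acid-binding zinc finger protein, had a fold of 2.56 and 3.65 in MII oocytes and 2.38 and 3.02 in zygotes, then 9.79 and 10.4 in 2-cell embryos, 11.3 and 4.14 in 8-cell embryos and 6.00 and 9.31 in blastocysts. The values of MII oocytes and zygotes were all below those of the later stages.

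Among the remaining genes of the 10 the median fold ran from 2.98 to 7.29. Cenpp, a centromere protein, had 5.79 to 11.1 (median 7.29) and overlaps another protein-coding gene. Fabp5, a fatty acid carrier, had 4.77 to 13.6 (median 7.01). Atp6v1e1, a subunit of the vacuolar proton pump, had 3.91 to 10.3 (median 7.20), and the peak in the first MII library lay at its start, at chr6:120822599-120822804. These 3 genes reached their highest fold in MII or zygote libraries. Ddx10, a DEAD-box helicase, had 4.67 to 9.61 (median 6.36), and Tpm3, a tropomyosin, had 2.91 to 10.6 (median 5.95). Ptma, prothymosin alpha, had 1.97 to 5.59 (median 3.09), and Ddx18, a helicase of ribosome assembly, had 2.47 to 4.78 (median 2.98), and their mean percentile over the 10 lists was 14.97 and 12.4. Ptma, Tpm3 and Cycs have near-identical processed copies elsewhere in the genome, between which reads can be divided.

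Marked in 9 of the 10 were Fam221b, Naa15, Nap1l1 and Cycs, among others. Fam221b had a single peak of 206 to 232 bp and a fold of 7.27 to 11.8 (median 9.10), with none in the second blastocyst library. Naa15, a subunit of the N-terminal acetyltransferase NatA, had 5.92 to 13.8 (median 8.21) and lacked a peak in the first zygote library. It held 1 or 2 peaks in the other MII and zygote libraries, and 3 or 4 in the 8-cell and blastocyst libraries. The 2-cell replicates differed from each other, with 2 and 4 peaks. Nap1l1, a histone chaperone, had 5.22 to 8.61 (median 6.27), and cytochrome c (Cycs) 4.94 to 7.75 (median 6.02).

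Of the fixed lists, the 6 splicing genes were Srsf11, Sf3b4, Snrpd1, Sf3b1, Srrm1 and Hnrnpu, with median folds over their marked libraries of 4.83, 4.02, 2.30, 3.95, 3.55 and 3.97. The proteasome subunits were Psmc6, Psmd1 and Psma4, with 5.71, 4.53 and 2.24. Snrpd1 and Psma4 stayed below 4 in every library. Ybx1, a packaging protein of stored messenger RNA, had 1.82 to 10.4 (median 6.51) at 1824 bp from its start, with both of its lowest values in the second 8-cell and first blastocyst library. Smarca5, the ISWI chromatin remodeller, had 3.06 to 7.27 (median 5.30), Polr2k, an RNA polymerase subunit, 4.03 to 10.03 (median 4.65), Rpl5, a protein of the large ribosomal subunit, 1.64 to 4.20 (median 3.12), and the mitochondrial Mrpl58 1.70 to 5.90 (median 4.62). Slc3a2, the heavy chain of amino acid transporters, had 4.46 to 15.6 (median 5.69).

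Grouped after their values were seen, 6 of 65 marked ribosome biogenesis factors (9.23%, next to 0.768% of all marked genes) were missing from GV: Ddx10, Ddx18, Nifk, Mybbp1a, Pdcd11 and Las1l. So were 3 of 36 centrosome genes (8.33%; Pcm1, Sass6 and Cep70) and 2 of 19 cohesin and condensin genes (10.5%; Smc2 and Rad21). Marked genes of these lists had a median of 8, 6 and 8 other libraries, in this order, against 4 for all marked genes. More of them were thus within reach of the rule, and the 0.768% is a low base for them. The ribosome biogenesis factors as a whole were marked in 31 and 34 cases per GV library, against 23 to 58 (median 45.5) in the others.

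The same lists differed in how far GV marked them at all. Cytosolic ribosomal protein genes were marked in 5 and 10 cases in the GV libraries, against 5 to 44 (median 15.5) in the others, and 4 of 56 (7.14%) were marked in both GV libraries, next to 45.9% of all marked genes. Proteasome genes were marked in 4 and 5 cases in GV, against 5 to 16 (median 11.5). Splicing factors were marked in 29 and 30 cases in GV, against 26 to 48 (median 41). Genes of zygotic genome activation were marked in 5 and 6 cases in GV, against 1 to 24 (median 11.5). In each of these lists the GV values lay below the median of the others but, except for proteasome genes, within their range. Oocyte-specific genes ran the other way, with 26 and 27 in GV, against 0 to 29 (median 8.5).

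Of 24 marked genes of the m6A machinery none was in either set, next to 1.87% and 0.768% of all marked genes. In so short a list none cannot be told from these shares. Rbm15, Rbm15b, Virma, Zc3h13 and Wtap, adaptors of the methyltransferase complex, and the readers Ythdf2 and Prrc2a were marked in both GV and all 10 other libraries. Rbm15 had 5 peaks in each GV library. Hnrnpa2b1 and Hnrnpc, nuclear readers, were unmarked in GV and marked in 7 others, 1 short of the limit. Mettl14 was marked in 1 GV library and nowhere else, and the catalytic subunit Mettl3 had no peak in any list.

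Near the limits of the rule the values were alike. Marked in both GV libraries and exactly 1 other were Fut10 (GV fold 12.4 and 8.67, and 7.42 in a 2-cell library), Hivep2 (9.26 and 9.31, and 6.20 in an MII library), Kcnmb3, Acvr1, Phc3 and Epha7. A further 166 genes were marked in 1 GV library and in no other. In the reverse set 41 of the 76 genes stood at the limit of 8 others, among them F11r, Slc5a6, Tcea1, Ctnnd2, Smarcc2 and Ppp1r9a, and 57 genes stood just outside it at 7, among them Vmn2r59, Pabpc4, Esf1, Ubl7, Ttf1 and Mbd1. F11r, a tight junction protein, had a fold of 6.59 and 6.98 in MII oocytes, none in zygotes, and 16.5 to 25.3 in the later libraries. More genes thus stood at the limit than above it.

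The peaks of the missing genes were compared with those of genes marked in GV and in 8 or more others. Over the 10 other libraries, the peaks of the missing genes lay within 2000 bp of the 3′ end in 2.56% to 25.7% of cases (median 12.9%), against 16.4% to 23.3%. This share was lower in each library from MII oocytes to 2-cell embryos, with 7.14% against 16.4% in the first MII library. In 8-cell libraries it was 22.6% and 25.7%, against 22.1% and 23.3%. In blastocysts it was 18.75% and 21.7%, against 22.1% and 20.2%. These peaks were few, with 39 in the first zygote library. Within 2000 bp of the start lay 4.69% to 20.6% (median 10.7%), against 3.14% to 5.99%. The median relative position, with 0 at the start and 1 at the 3′ end, was 0.354 to 0.764 (median 0.578), against 0.755 to 0.838 (median 0.802). Their peaks were narrow in each of the 10 libraries, with a median of 208 to 228 bp, against 268 to 359 bp, and they numbered 1.31 to 1.82 per gene, against 1.69 to 2.25. The ranges of width did not overlap, while those of number and place did.

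At the level of regions, 698 of the 1055 GV-only regions (66.2%) lay in protein-coding genes, 116 (10.995%) in other genes and 241 (22.8%) between genes. For regions of both GV libraries shared with another library the shares were 72.7%, 6.63% and 20.7%. Only 190 of the GV-only regions touched a GV-only gene. A further 514 lay in genes that another library marked elsewhere, and 351 touched no protein-coding gene. The nearest peak of another stage lay at a median distance of 7420 bp, within 500 bp for 241 regions and beyond 10000 bp for 480. GV-specific sites were thus for the larger part additional sites in genes that are marked at other stages too, or sites outside protein-coding genes.

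Most genes with such regions held 1 (585 genes), 66 held 2, 7 held 3 and Macrod2, a gene of 1997664 bp, held 4. Dock3, Mfsd9, Mvb12b, Ston2, Tlr9, Tmcc3 and Zfp235 were those with 3, of which Tlr9 and Zfp235 were GV-only genes. The strongest regions were in Opalin (13.9 and 13.4), in the oestrogen receptor gene Esr1 at chr10:5001525-5001970 (12.5 and 10.7), between genes at chr13:45079634-45079941 (15.03 and 9.03), at chr10:87826460-87826906 (9.58 and 11.9), in a non-coding model at chr12:51844468-51845028 (10.2 and 10.3) and in Fut10 (12.4 and 8.67). Esr1 was marked in 5 other libraries at other sites, and its GV site lay 3886 bp from the 3′ end. The leading regions were thus split between coding genes and other sequence. Among the non-coding genes under GV-only regions, 93 region and gene pairs were lncRNAs, 22 pseudogenes and 10 transcribed pseudogenes, and Snhg18, a host of small nucleolar RNAs, held 1 region.

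Of the 78 regions missing from GV, 68 (87.2%) lay in protein-coding genes and 14 were found in all 10 others. The strongest lay between genes at chr14:8799451-8800344, with a fold of 8.79 to 17.3 (median 10.5). Zscan18, a zinc finger gene, had a region of 256 bp with a fold of 4.73 and 7.20 in MII oocytes, 11.4 and 10.8 in zygotes, 28.4 and 14.1 in 2-cell embryos, 31.3 and 26.01 in 8-cell embryos and 10.6 and 25.5 in blastocysts. The MII values were the lowest and the 8-cell values among the highest. Sfn and Zfp993 followed within genes, the region in Zfp993 also touching other gene models. One region lay in the non-coding model Gm6055 (5.24 to 14.4, median 8.61) and one between genes on chromosome 7 (3.21 to 53.4, median 8.89), which had the widest spread of these.

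**Figure D4:**
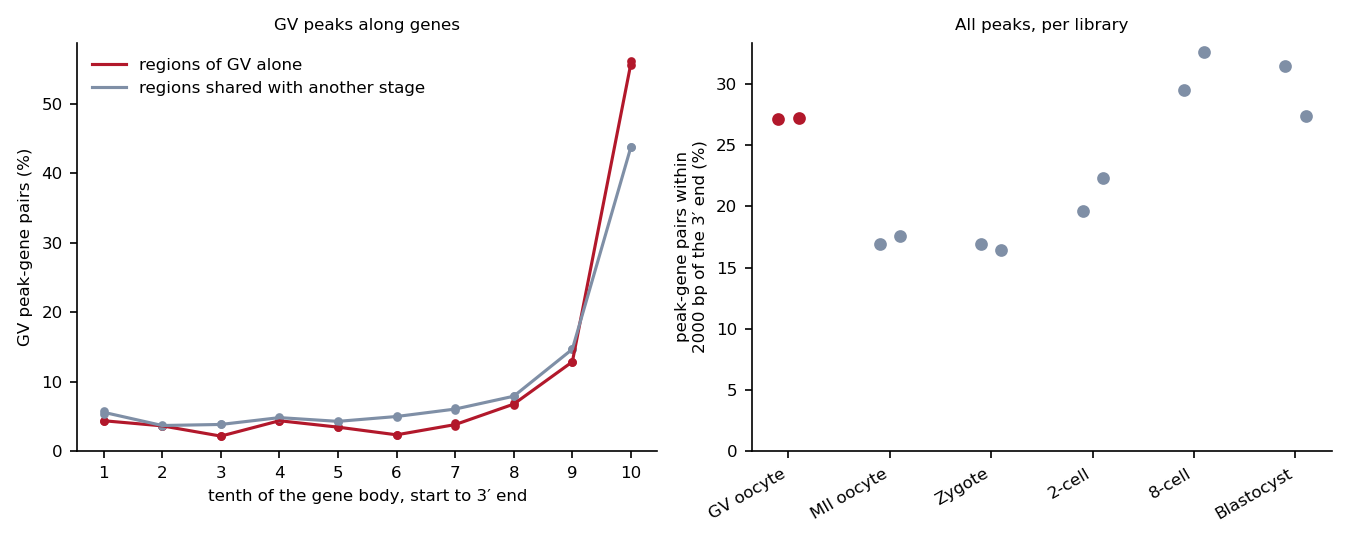
Left, percentage of GV peak and gene pairs in each of 10 equal bins of the gene body from the start to the 3′ end, for peaks in regions of GV alone (red) and in regions shared with another stage (grey). Points are the 2 GV libraries and lines their means. Both panels use genes longer than 10000 bp with a known strand. In the last bin the regions of GV alone have 55.5% and 56.1%, against 43.8% and 43.7%. Right, percentage of all peak and gene pairs within 2000 bp of the 3′ end in each library, 27.1% and 27.2% in GV, against 16.4% to 32.5% in the other stages.

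Peaks in GV-only regions resembled those of GV-only genes. There were 1068 in each GV list, with a median width of 258 and 281 bp, against 362.5 and 367 bp for GV peaks shared with another stage. Only 2 and 5 of them were 1000 bp or wider, against 571 and 686. Their median fold was 4.30 and 4.06, against 5.04 and 4.87. Within 2000 bp of the 3′ end lay 34.6% and 34.1%, against 26.2% and 26.5%, and the last 10% of the gene held 55.5% and 56.1%, against 43.8% and 43.7%. The 2 libraries differed by less than 1 percentage point in each of these shares. For the GV-only regions this closeness follows from the rule, which asks for a peak of both libraries in the same region.

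The position of all peaks differed between GV and the stages that follow it. Within 2000 bp of the 3′ end lay 27.1% and 27.2% in GV oocytes, 16.9% and 17.6% in MII oocytes, 16.9% and 16.4% in zygotes, 19.6% and 22.3% in 2-cell embryos, 29.5% and 32.5% in 8-cell embryos and 31.4% and 27.4% in blastocysts. GV thus lay above all 6 libraries from MII to 2-cell and below all 4 of the last stages. The share within 2000 bp of the start was 3.11% and 3.70% in GV, against 4.01% to 7.16% in the others, all of which were above it. The measure fixed for testing, the share within 2000 bp of either end of a gene longer than 10000 bp, was 29.8% and 30.3% in GV, against 21.1% to 36.3%, and did not separate GV from the others (exact permutation p = 0.545, adjusted p = 0.773).

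GV peaks had the largest median width of the 12 lists, a difference that did not pass the adjusted threshold. The median width was 342 and 344 bp in the GV libraries, against 226 to 305 bp in the others, with means of 343 ± 1.41 bp (SD, n = 2) and 265 ± 20.9 bp (SD, n = 10). The difference of 77.6 bp had an exact permutation p of 0.0152, the smallest that 66 splits allow, and an adjusted p of 0.121. With lists of equal length the difference was 136 bp (exact permutation p = 0.0152, adjusted p = 0.053). The cut by q-value itself moved the GV medians to 420 and 431 bp, with the others at 235.5 to 340 bp. The first zygote list, the shortest, was uncut and stayed at 263 bp. The 136 bp is thus not a width difference corrected for list length. Peaks of 1000 bp or wider made up 5.23% and 5.78% of the GV lists, against 0.994% to 3.40% in the others. The GV peaks held 1.38 and 1.39 summits each, against 1.13 to 1.28. All 10 others were below GV in these 3 measures. The median fold enrichment was 4.83 and 4.62 in GV, against 4.90 to 6.79. The lists with the largest median width thus had the lowest median fold, which does not hold for single peaks. Within the GV lists, peaks shared with another stage were wider than those of GV-only regions and had the higher median fold.

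The width was then read at sites held in common, a comparison chosen after the data were seen. At 378 sites with exactly 1 peak in each of the 12 libraries, the median width was 438.5 and 463 bp in GV, against 329 to 453 bp in the others, and the ranges overlapped (difference 63.0 bp, exact permutation p = 0.106). The mean GV peak was wider than the mean of the others at 249 of the 378 sites (65.9%). Both GV peaks were wider than all 10 others at 33 sites and narrower than all 10 at 15. At shared sites the difference was thus smaller than over all peaks.

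**Figure D5:**
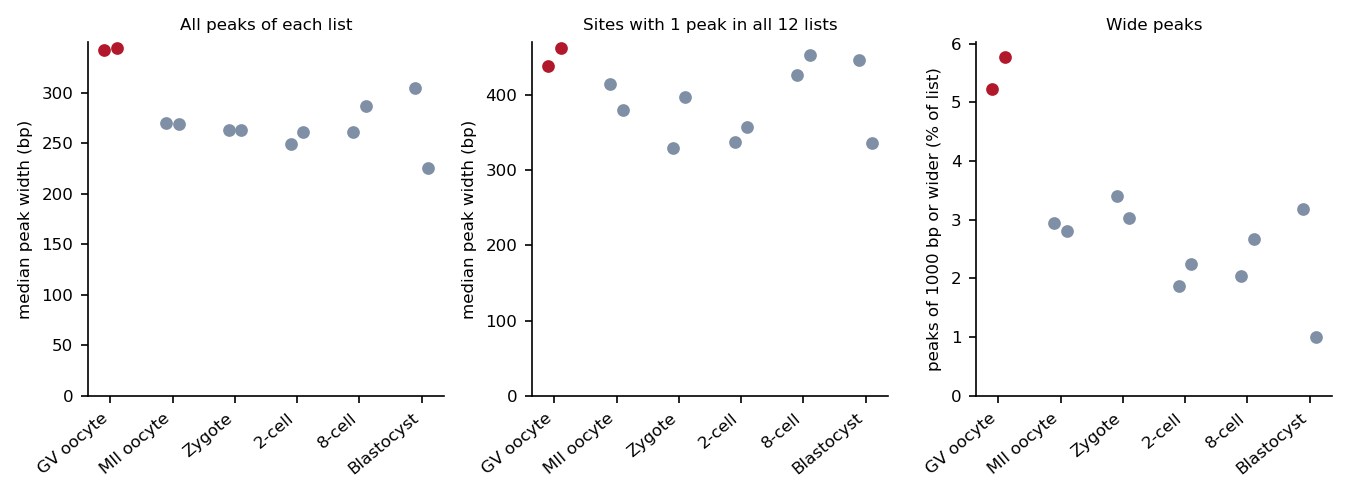
Median peak width in bp over all peaks (left) and over 378 sites with 1 peak in all 12 lists (middle), and percentage of peaks of 1000 bp or wider (right), by stage, with 1 point per library and GV in red. Over all peaks GV stands at 342 and 344 bp, above the 226 to 305 bp of the others. At the shared sites GV stands at 438.5 and 463 bp, and the others reach 453 bp.

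In the lists as deposited, the number of peaks per gene did not set GV apart. Marked genes carried 1.68 and 1.72 peaks in GV, against 1.55 to 1.81 in the others (difference 0.02, exact permutation p = 0.773, adjusted p = 0.773). With 2 or more peaks stood 39.6% and 41.6% of the marked genes in GV, against 34.7% to 44.6% (exact permutation p = 0.561, adjusted p = 0.773). In the 828 genes marked in all 12 libraries the number was 2.27 and 2.37 in GV, against 1.81 to 2.56. With lists of equal length the difference in peaks per marked gene turned to -0.0988 (exact permutation p = 0.0152, adjusted p = 0.053). Peaks in protein-coding genes made up 71.0% and 72.3% in GV, against 60.8% to 92.3% (exact permutation p = 0.682, adjusted p = 0.773), and intergenic peaks 21.7% and 20.7%, against 3.78% to 31.4% (exact permutation p = 0.727, adjusted p = 0.773). In the lists as deposited, GV lay within the range of the other stages in each of these measures. With lists of equal length GV had 1.481 and 1.479 peaks per marked gene, below all others (1.486 to 1.641).

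Which genes belong to the sets depended on the length of the lists. With equal list lengths 53 of the 185 GV-only genes and 39 of the 76 missing genes kept their place, while with a stricter threshold (-log10 q of at least 5) 167 and 63 did. Without the first GV library 301 genes and 1931 regions were specific to GV, and without the second 235 and 1583, against 185 and 1055. Without the second, 130 genes and 151 regions were missing from GV, against 76 and 78. Leaving out 1 of the other libraries, so that 8 of 9 were asked for, left 38 to 53 missing genes and 40 to 60 missing regions. The first zygote library is the only one of these whose loss moved the missing genes by less than 1.5 times.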

How the data were processed

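RNA m6A was profiled by immunoprecipitation and sequencing in 12 IP libraries, 2 for each of 6 stages, which the series' design text calls biological replicates. Per the submitters' processing notes, the tools were HISAT2 2.1.0, MACS2 2.1.2, cutadapt 1.8.1, bedtools 2.28.0, FastQC 0.11.8, deepTools 3.2.0 and SAMtools 1.9, with the mm10 build. The deposited lists give, for each summit, a score, a fold enrichment (a ratio) and -log10 p- and q-values, as the authors' caller wrote them. One list was deposited per library. The sources used here do not say how the input entered the call. Since the lists hold no read counts, the depth per sample, and any interval that needs it, is unknown.

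The 143579 deposited summits were joined into 113764 peaks by identical start and end, keeping the highest fold and q-value. Peak lists were read with Python 3.11.15, pandas 2.3.3 and NumPy 2.4.6 and figures drawn with matplotlib 3.10.9. Genes were the 21883 RefSeq protein-coding genes of GRCm38.p6, and strand was known for 17491 of them from the RefSeq promoter table. Peak class and place use the midpoint. Shares near the start or the 3′ end and relative positions cover genes longer than 10000 bp with a known strand. Percentiles rank the fold within a list. For each measure, the GV mean was set against the mean of the others with an exact permutation test (two-sided, 66 splits), with Benjamini-Hochberg adjustment over 8 measures and a threshold of 0.05. The 10 other libraries are 5 stages, not replicates of 1 condition. The procedures were tested on simulated lists.

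Named were the 15 GV-only genes of highest mean percentile, the 15 missing genes marked in most others, 6 regions of each kind chosen likewise, list members in either set, 6 genes on each side of each limit, the m6A genes and the markers. One of the missing genes is not reported here. Gene models without a symbol are counted but, as a rule, not named. Genes named outside this rule (Fam169b, Gm5955, Tlr9 and the other members of lists grouped later, and the genes with 3 or more GV-only regions) were chosen after their values were seen. Members and lists were chosen with earlier results of these data known. Alternatives were a stricter q-value, equal list lengths, other overlap rules, whole stages, a replicate block and each library left out in turn.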

Additional observations from a re-analysis of the deposited data

How the results depend on the processing

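No measure per library passed the adjusted threshold of 0.05 in the main analysis or under any alternative run, and 2 turned round. A single measure could not have passed in any adjusted run, the main analysis included. Before adjustment over the measures, the smallest p is 0.0152 over 66 splits, 0.0909 without a GV library, 0.0278 with the replicate block and 0.167 with whole stages. That no measure passed thus says nothing about stability. With lists of equal length, peaks per marked gene differed by -0.0988 and the share of marked genes with 2 or more peaks by -3.13 percentage points (GV minus others), against 0.02 and 1.51 in the main analysis. The width difference was then 136 bp, against 77.6 bp, and that in marked genes 33.4, against 751. The cut by q-value itself moved the median widths, most of all in GV. The GV-only regions numbered 530 with equal list lengths, against 1055. The genes missing from GV numbered 133, 35 and 10 when 7 or more, 9 or more and all 10 others were asked for, and the regions 132, 38 and 14. Leaving out 1 library in turn gave 191 to 301 GV-only genes, 38 to 130 missing genes, 1071 to 1931 GV-only regions and 40 to 151 missing regions. It gave differences of 1868 to 2874 peaks, 543.5 to 958.5 marked genes, 73.2 to 82.0 bp in width, 0.0016 to 0.0436 peaks per marked gene, 0.487 to 2.53 points in the share with 2 or more peaks, -6.37 to -2.86 points in coding share, 2.03 to 5.10 points in intergenic share and 1.69 to 3.38 points near a gene end. The causes were not tested. With the replicate block (GV exchanged only among libraries of the same number) the exact permutation p was 0.0278 for width and 0.0556 for peaks per library (adjusted p = 0.222 for both). Samples of the same number did not deviate together, since the correlations of the 15 stage pairs ran from -0.165 to 0.026, so the numbers were not taken as pairs. Over all alternatives, those leaving out a library included, 170 values kept their direction and their side of the threshold or stayed within 1.5 times the main count, 29 counts moved further and 2 values turned round. No peak by peak count was made for the reverse set.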
